A study of Rattus norvegicus with 105 samples.

Results

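The genes of MHC class II antigen presentation were followed in rat muscle that carried metal pellets for up to 12 months. The set holds 8 listed genes: RT1-Da and RT1-Db1, RT1-Ba and RT1-Bb, RT1-DMa and RT1-DMb, Cd74 and Ciita. A gene was measured where a probe set of the deposited array table was annotated to its symbol, and the brightest would have been taken had there been several. Of the 8 genes, 6 had such a probe set, 1 each, out of 22954 probe sets tested. RT1-DMa and RT1-DMb had no probe set named for them in the annotation used here, so no value is given for either. The genes were listed by function, not by a measured value, although results of these data were known when the list was drawn up.

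Male Sprague-Dawley rats, about 30 d old when purchased and kept for at least 2 weeks before surgery, received 4 pellets each, 2 in the gastrocnemius of each limb. A pellet was a cylinder 1 mm across and 2 mm long of cobalt (Co), nickel (Ni), copper (Cu), aluminum (Al), depleted uranium (DU), iron (Fe), lead (Pb), tungsten (W) or tantalum (Ta). Tantalum animals had the same operation, so a comparison with them leaves out the effects of the operation and of an inert implant. Muscle was taken after 1, 3, 6 or 12 months. That gives 35 groups of 3 arrays, and nickel at 12 months was not analysed here. Each array carried RNA pooled from 2 to 3 of the 8 rats assigned to a metal and month. Whether pools of a group share animals is not stated, so a p-value measures the spread between pools.

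MHC class II molecules are heterodimers of an alpha and a beta chain that display peptides from internalised proteins to CD4+ T cells. In the rat, RT1-Da and RT1-Db1 encode the chains of the RT1-D molecule, the counterpart of human HLA-DR, and RT1-Ba and RT1-Bb those of RT1-B, the counterpart of HLA-DQ. Cd74 encodes the invariant chain, which fills the peptide groove during assembly and guides the dimer to endosomes, where the RT1-DM dimer helps to exchange its remnant for peptide. Ciita encodes the class II transactivator, a coactivator that does not bind DNA itself but docks on factors assembled at the X and Y boxes of class II promoters. Dendritic cells, macrophages and B cells express these genes constitutively, other cells can after interferon gamma, and resting muscle fibres are not known as a source.

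The promoter stretches that hold the X and Y boxes are shown because Ciita acts through these elements and because the genes differed in how far they moved. Sequences are from RefSeq for the rat assembly GRCr8, in which 6 of the 8 genes had an entry. RT1-DMb and Ciita had none. The 250 bases before each start site were searched on both strands for the X box, written as CC, any 2 bases, G, any 2 bases, AC, any 3 bases and TG, and for the Y box CTGATTGG, which do not overlap each other. Capitals mark the matches.
RT1-Da (chr20:4515304-4515395, + strand): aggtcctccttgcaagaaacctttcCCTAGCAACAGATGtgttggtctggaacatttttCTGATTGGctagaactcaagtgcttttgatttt
RT1-Db1 (chr20:4560213-4560305, - strand): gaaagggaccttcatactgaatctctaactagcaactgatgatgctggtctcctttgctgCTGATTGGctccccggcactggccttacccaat
RT1-Ba (chr20:4576951-4577043, + strand): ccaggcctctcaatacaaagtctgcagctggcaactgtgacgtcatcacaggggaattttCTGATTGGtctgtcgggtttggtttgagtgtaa
RT1-Bb (chr20:4604150-4604240, - strand): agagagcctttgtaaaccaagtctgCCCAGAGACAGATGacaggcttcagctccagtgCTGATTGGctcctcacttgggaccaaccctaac
Cd74 (chr18:56526956-56527024, + strand): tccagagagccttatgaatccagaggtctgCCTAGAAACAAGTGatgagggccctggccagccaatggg

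The Y box letters were present in all 4 chain genes on the gene's own strand. Both boxes stood together in RT1-Da, 20 bases apart, and in RT1-Bb, 19 bases apart. Cd74 held an X box match 220 bases before its start and no Y box match, and RT1-Db1 and RT1-Ba held a Y box match without an X box match. In RT1-Db1 a stretch 19 bases before the Y box missed the X box letters at its first base only. The search was exact, so the lack of a match does not mean that a box is absent. Among 33469 promoters of the same length, 3.12% held the X box letters, 3.19% the Y box letters and 0.12% both. RT1-DMa matched neither box. The shorter CCAAT box, ATTGG on either strand, lies inside the Y box and was added after the windows had been read. It occurred in all 6 windows, RT1-DMa and Cd74 included, and in 34.0% of all promoters. A match is a description of letters, not of binding.

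Levels are log2 intensities. Cd74 was the brightest member with a mean of 8.83 over all arrays, higher than 86.7% of probe sets by mean level, and RT1-Da followed at 8.10. RT1-Db1 at 6.21, RT1-Ba at 6.05, RT1-Bb at 5.97 and Ciita at 5.96 lay near the middle of the array, between the 39.8th and 45th percentile. These are brightness values of different probes and do not rank the genes by RNA. The dimmest 30% of probe sets ended at 5.45 and the control probes had a median of 4.09. The labelled tissue was borne out by its markers: the mean of 11 skeletal muscle genes stayed between 13.07 and 13.41 in every group.

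Ordered by level, the 35 groups had the same head for every gene. Cobalt at 3 months was first and nickel at 3 months second for all 6 genes. For RT1-Da the group means ran from 10.47 in cobalt at 3 months to 7.42 in depleted uranium at 6 months, with a median of 7.94. For Cd74 they ran from 11.60 to 8.00 in tungsten at 12 months, with a median of 8.64. RT1-Db1 ran from 8.32 to 5.62, RT1-Ba from 8.39 to 5.41, RT1-Bb from 6.69 to 5.49 and Ciita from 6.77 to 5.61. Of the 34 neighbouring pairs in this order, 33 had overlapping arrays for RT1-Da, RT1-Db1, RT1-Ba, Cd74 and Ciita. The 1 pair apart was cobalt above nickel at 3 months in each of these 5 genes. For RT1-Bb all 34 neighbouring pairs overlapped. Below nickel at 3 months, then, the order of neighbours was not resolved by the arrays.

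**Figure D1:**
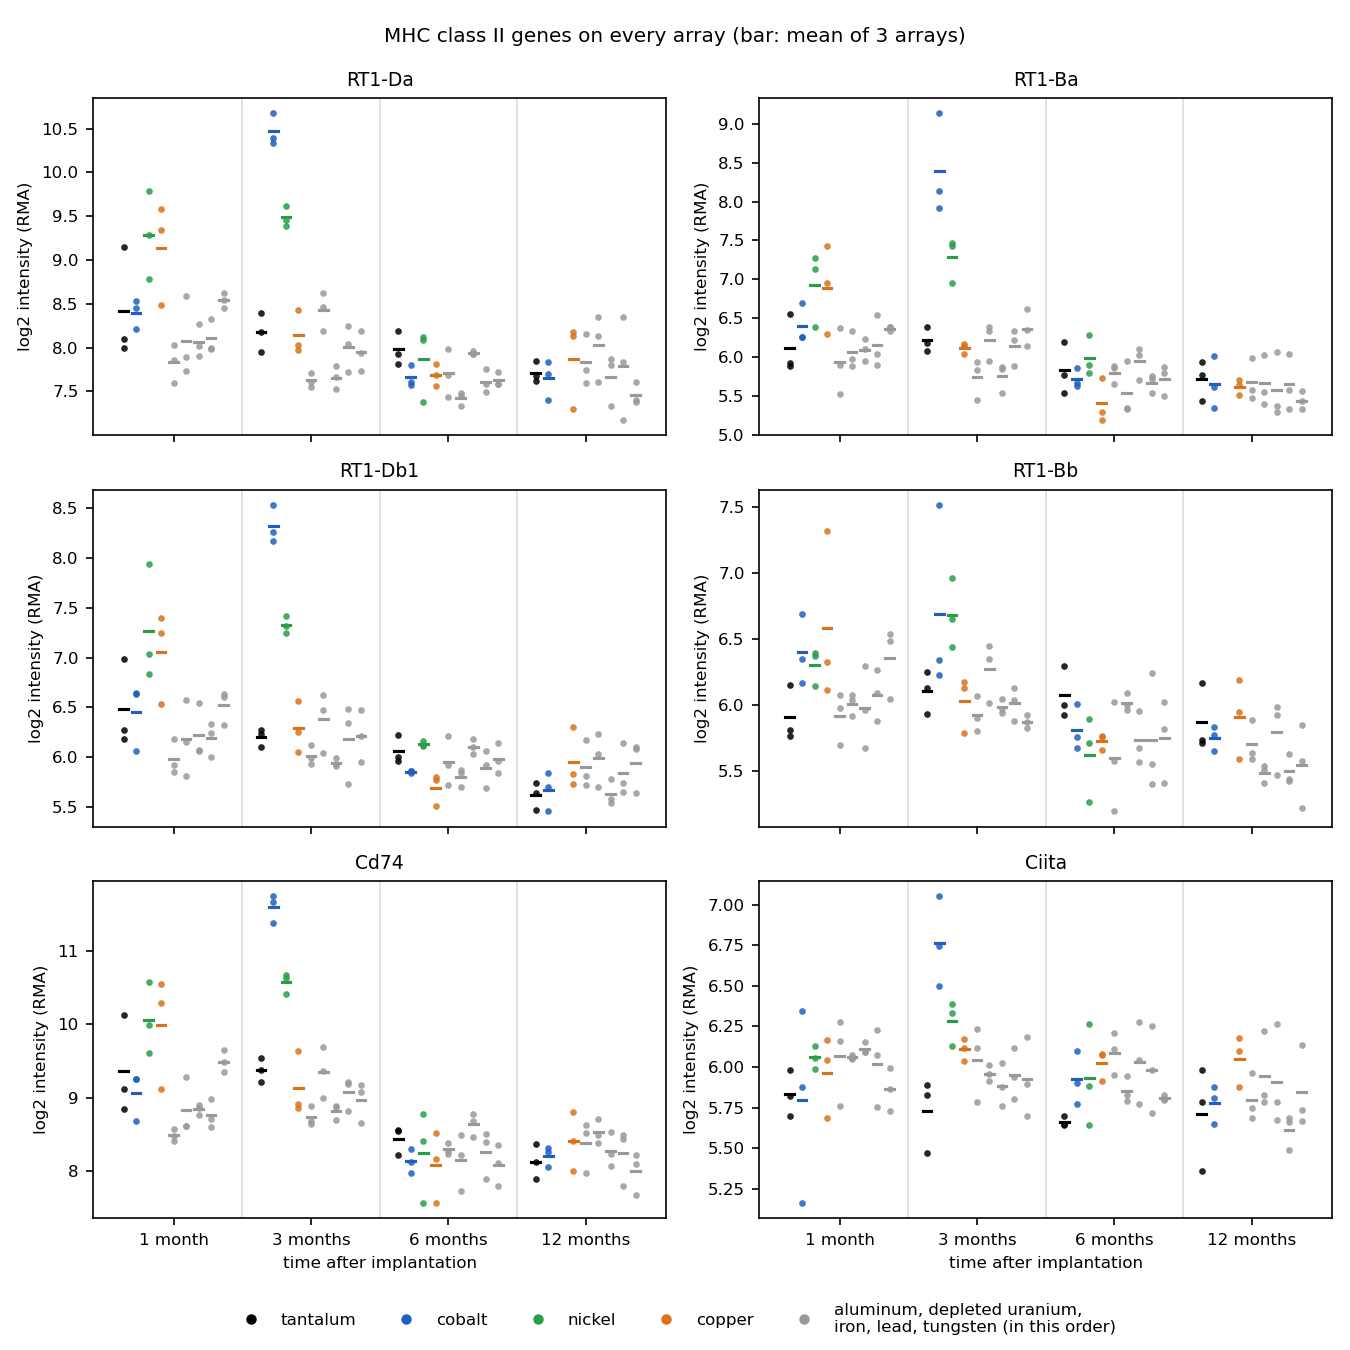
Log2 intensity of each measured class II gene on every array (points; bars are means of 3 arrays), by months after implantation, with tantalum in black, cobalt in blue, nickel in green, copper in orange and the other metals in grey. Cobalt at 3 months lies above all 102 other arrays in every panel except RT1-Bb, where 1 of its 3 arrays stands apart at 7.52.

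With cobalt at 3 months, 5 of the 6 measured genes were higher than with tantalum of the same month: both chains of RT1-D, the alpha chain of RT1-B, the invariant chain and the transactivator. The background for this count is 4.87% of all probe sets called higher, where a call means an adjusted p below 0.05 in limma. The median difference of the 6 genes was 2.15, against -0.05 over all probe sets. In the same 5 genes the 3 cobalt arrays lay above the 3 tantalum arrays, which held for 11.1% of all probe sets. In whole muscle, more class II-bearing cells and more class II RNA per cell cannot be told apart, here and below.

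RT1-Da, the RT1-D alpha chain, measured 10.40, 10.33 and 10.67 on the 3 cobalt arrays and 7.95, 8.40 and 8.18 on the 3 tantalum arrays. The groups did not overlap, and no other array of the study reached the lowest cobalt array. The difference was 2.29 ± 0.23 (log2, SE), a 4.88-fold higher level, with an adjusted p of 8.597e-13 in limma.

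RT1-Db1, the RT1-D beta chain, measured 8.26, 8.17 and 8.53 in cobalt and 6.10, 6.28 and 6.23 in tantalum. Again every cobalt array was above all 102 others. The difference was 2.11 ± 0.20, with an adjusted p of 5.953e-14 in limma. RT1-D thus rose in both of its chains.

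RT1-Ba, the alpha chain of RT1-B, measured 8.13, 7.92 and 9.13 in cobalt and 6.38, 6.08 and 6.19 in tantalum. The third cobalt array was the highest of the study, and all 3 lay above every other array. The difference was 2.18 ± 0.24, with an adjusted p of 8.658e-12 in limma.

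RT1-Bb, the partner beta chain, behaved differently between pools. It measured 6.23, 6.34 and 7.52 in cobalt and 5.93, 6.25 and 6.13 in tantalum, so that 1 cobalt array was far above and the lowest overlapped tantalum. The difference of 0.59 ± 0.22 was not called, with an adjusted p of 0.1116 in limma. Against the mean of the 7 other metals the same difference, 0.58 ± 0.16, had an adjusted p of 0.01197. Without the first or without the second cobalt array it was called, and the count was 6 of 6. The probe set's mean level lay at the 40.1th percentile, close to that of RT1-Ba.

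Cd74, the invariant chain, measured 11.67, 11.38 and 11.75 in cobalt and 9.22, 9.54 and 9.37 in tantalum. The groups were separate and no other array came as high. The difference was 2.22 ± 0.26, a 4.67-fold higher level, with an adjusted p of 1.884e-10 in limma.

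Ciita, the transactivator, measured 6.50, 6.75 and 7.05 in cobalt and 5.47, 5.89 and 5.83 in tantalum. All cobalt arrays were above every other array of the study. The difference was 1.04 ± 0.17, 2.05-fold, with an adjusted p of 3.07e-06 in limma. Tantalum had the lowest Ciita mean of the 9 groups at 3 months, 5.73, and against the mean of the 7 other metals the difference was 0.74 ± 0.13.

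With nickel at 3 months, 4 of the 6 genes were higher than with tantalum, RT1-Da, RT1-Db1, RT1-Ba and Cd74, against a background of 2.82% of probe sets called higher. The median difference of the 6 genes was 1.09, against -0.02 over all probe sets. For all 6 genes the 3 nickel arrays lay above the 3 tantalum arrays, which held for 9.75% of all probe sets.

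RT1-Da measured 9.39, 9.62 and 9.46 in nickel, 1.31 ± 0.23 above tantalum with an adjusted p of 5.646e-05 in limma. RT1-Db1 measured 7.24, 7.42 and 7.31, a difference of 1.12 ± 0.20 with an adjusted p of 6.294e-05 in limma. Both RT1-D chains were tight among pools, with an SD of 0.12 and 0.09.

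RT1-Ba measured 6.96, 7.43 and 7.46, a difference of 1.07 ± 0.24 with an adjusted p of 0.001876 in limma. It lost the call when the second replicate of all groups was left out (adjusted p of 0.1484). Cd74 measured 10.68, 10.64 and 10.41, a difference of 1.20 ± 0.26 with an adjusted p of 0.001622 in limma. It lost the call when the first replicate of all groups was left out (adjusted p of 0.07214). Every other alternative that was run kept these 2 calls, and RT1-Da and RT1-Db1 kept theirs in all 18.

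The remaining 2 genes were higher on every nickel array without passing. RT1-Bb measured 6.96, 6.44 and 6.65, 0.58 ± 0.22 above tantalum with an adjusted p of 0.1474 in limma. Ciita measured 6.13, 6.33 and 6.39, 0.56 ± 0.17 above tantalum with an adjusted p of 0.05151 in limma. Set against the mean of the 7 other metals, RT1-Bb differed by 0.57 ± 0.16 (adjusted p of 0.02427) and Ciita by 0.19 ± 0.13 (adjusted p of 0.6005). RT1-Bb thus passed against that reference with nearly the same difference, while the Ciita difference was smaller.

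Cobalt and nickel at 3 months were also compared with each other. Of the 6 genes, 4 were higher in cobalt, where the background is 1.69% of probe sets. The difference was 0.98 ± 0.23 for RT1-Da, 0.99 ± 0.20 for RT1-Db1, 1.11 ± 0.24 for RT1-Ba and 1.02 ± 0.26 for Cd74, with adjusted p-values in limma of 0.005736, 0.0005227, 0.001155 and 0.01412. The steps were near 1 log2 unit in each of the 4. RT1-Bb was level, with a difference of 0.01 ± 0.22. Ciita differed by 0.48 ± 0.17, with an adjusted p of 0.1777. Only RT1-Db1 of the 4 kept its call in all 16 alternatives. Without the third cobalt array the count was 1 of 6. Cd74 also lost its call without the first cobalt array and without the third nickel array.

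**Figure D2:**
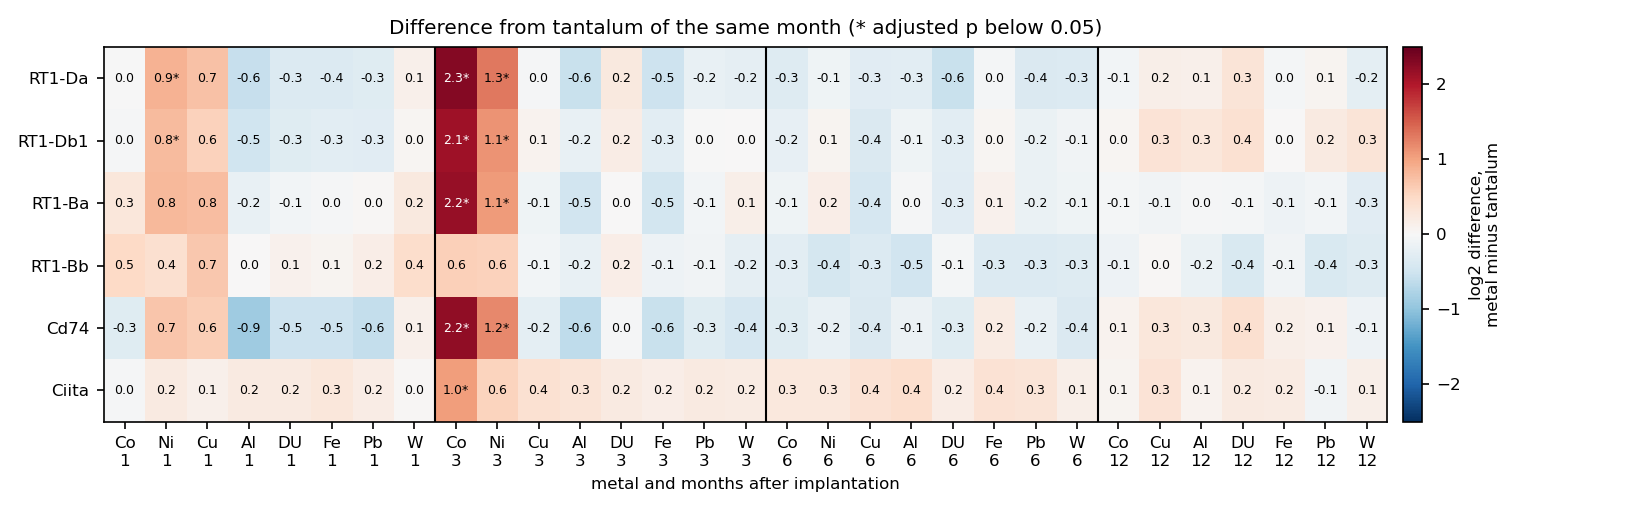
Log2 difference of each class II gene from tantalum of the same month (colour and printed value) for 31 comparisons of a metal and month; an asterisk marks an adjusted p below 0.05 in limma. Calls stand in cobalt at 3 months, in nickel at 3 months and, for RT1-Da and RT1-Db1, in nickel at 1 month.

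At 1 month the metals already differed, and the tantalum pools did too. With nickel, 2 of the 6 genes were higher, both chains of RT1-D, against a background of 0.405% of probe sets called higher. RT1-Da measured 8.78, 9.29 and 9.78 in nickel and 8.10, 7.99 and 9.15 in tantalum. The third tantalum array lay above the lowest nickel array, so the groups overlapped. The difference was 0.87 ± 0.23, with an adjusted p of 0.0485 in limma. RT1-Db1 measured 6.83, 7.04 and 7.93 in nickel and 6.18, 6.28 and 6.99 in tantalum. The overlap came from the same tantalum array, and the difference was 0.79 ± 0.20, with an adjusted p of 0.03473 in limma.

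The third tantalum pool at 1 month was the highest of its group in RT1-Da, RT1-Db1, RT1-Ba, RT1-Bb and Cd74. Cd74 read 9.11, 8.85 and 10.12 on the 3 tantalum arrays. In the same pool the mean of 15 macrophage markers was 7.52 against 6.85 and 6.70, and the mean of 7 fibroblast markers was 10.99 against 10.17 and 10.22. The mean of 8 pan-leukocyte markers was 7.87 against 7.27 and 6.99. The part of these markers in the 1-month results was not tested.

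Without that tantalum array, nickel at 1 month had 4 genes called higher. The array was singled out because it read highest in most of these genes, so leaving it out had to raise their differences. The added calls are not separate evidence. The share of all probe sets called in either direction was then 1.53%, against 0.797% with it. RT1-Da then differed by 1.24 ± 0.25 (adjusted p of 0.001775), RT1-Db1 by 1.04 ± 0.22 (0.002843), RT1-Ba by 1.03 ± 0.26 (0.01983) and Cd74 by 1.08 ± 0.28 (0.02392). With it, RT1-Ba differed by 0.81 ± 0.24 and Cd74 by 0.70 ± 0.26, neither called. Leaving out the third nickel array, or the first or second tantalum array, left 0 genes called, and leaving out the second nickel array left 1.

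Copper at 1 month looked like nickel in level but had 0 of 6 genes called in limma, against a background of 0.235% of probe sets called higher, with 5 genes at an unadjusted p below 0.05. RT1-Da measured 9.59, 8.49 and 9.34 in copper, a difference of 0.73 ± 0.23 with an adjusted p of 0.2306 in limma. RT1-Ba measured 6.96, 6.30 and 7.43, a difference of 0.77 ± 0.24 with an adjusted p of 0.1892. RT1-Bb measured 7.32, 6.12 and 6.33, a difference of 0.67 ± 0.22 with an adjusted p of 0.2314.

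The second copper pool was the lowest in RT1-Da, RT1-Db1, RT1-Ba, RT1-Bb and Cd74. Without it, 5 genes were called higher, a fit for which the share of all probe sets is not given here. Without the third tantalum pool, 3 were: RT1-Da by 1.09 ± 0.25, RT1-Db1 by 0.83 ± 0.22 and RT1-Ba by 0.99 ± 0.26. In that fit 0.614% of all probe sets were called in either direction, against 0.322% with all arrays. Ciita differed from tantalum by 0.13 ± 0.17 in copper and by 0.22 ± 0.17 in nickel, neither called. With all arrays, no class II gene was called in copper at 1 month, and RT1-Da and RT1-Db1 were in nickel. The nickel arrays of Ciita all lay above those of tantalum, which held for 7.24% of all probe sets. Those of the chains and Cd74 overlapped tantalum.

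A test among the 8 metals does not use tantalum. At 1 month the moderated F test of limma called RT1-Da (adjusted p of 3.381e-06), RT1-Db1 (4e-06), RT1-Ba (0.005931) and Cd74 (4.686e-06), against a background of 4.46% of probe sets. With the arrays of that month alone, 2 of the 4 passed. At 3 months all 6 genes passed, against a background of 8.84%. At 6 and 12 months 0 of 6 passed, as did 0 of all probe sets, in limma.

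The difference from tantalum changed between months in cobalt muscle. The moderated F test called 5 of the 6 genes, RT1-Bb being the exception (adjusted p of 0.1748), against a background of 4.18%. RT1-Da measured 8.21, 8.53 and 8.45 on the cobalt arrays at 1 month, close to tantalum, and 7.57, 7.61 and 7.81 at 6 months. The 3-month arrays stood above both sets without overlap. Cd74 measured 8.69, 9.25 and 9.25 at 1 month and 8.12, 8.30 and 7.97 at 6 months.

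From 1 to 3 months the cobalt difference rose in 5 of 6 genes (background of 3.38% called higher), by 2.30 ± 0.33 for RT1-Da and by 1.08 ± 0.24 for Ciita. Without the first cobalt array of 1 month, which read 5.16 for Ciita against 5.88 and 6.35, the Ciita step was not called. From 3 to 6 months the difference fell in 4 of 6 (background of 3.63% called lower), the 4 being RT1-Da, RT1-Db1, RT1-Ba and Cd74. RT1-Da fell by 2.61 on the log2 scale and Cd74 fell by 2.53. Ciita changed by -0.78 ± 0.24, with an adjusted p of 0.0511 in limma. Set against 12 months, 5 of 6 genes were lower than at 3 months (background of 3.39% called lower), Ciita included. Its call was lost without the third cobalt array of 3 months or without the first tantalum array of 12 months. At 6 months RT1-Da and Cd74 had lower means in cobalt than in tantalum, 7.66 against 7.98 and 8.13 against 8.44, neither called.

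Nickel muscle was followed in the same way, and its course was not tested against that of cobalt. From 1 to 3 months 0 of 6 genes were called in limma (background of 0.0479% called higher), with 0 of 6 at an unadjusted p below 0.05, and the RT1-Da difference moved by 0.44 ± 0.33. With so few calls over the whole array, 0 of 6 does not show that these genes stayed level. From 3 to 6 months the difference fell in 3 of 6 genes (background of 1.61% called lower): by 1.42 for RT1-Da, by 1.06 for RT1-Db1 and by 1.39 for Cd74 on the log2 scale. Cd74 measured 7.56, 8.77 and 8.40 in nickel at 6 months and 8.21, 8.54 and 8.55 in tantalum, which overlap. Without the first nickel array of 6 months, 0 of the 3 calls were left. Leaving out the first or second nickel array of 3 months, the first or the third tantalum array of 3 months or the second tantalum array of 6 months left 1. Over all 3 months the moderated F test called RT1-Da alone (adjusted p of 0.02077), against a background of 1.22%. With the replicate number as a block it called 2 genes, and with any 1 replicate of all groups left out it called 0.

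At 6 and 12 months no member was called in any of 15 comparisons with tantalum in limma, where 0.0915% of all probe sets were in depleted uranium at 12 months, 0.00436% in cobalt and in copper at 12 months, and 0% in the others. The lack of member calls is near these shares and is not a result about the class II genes. Of these 90 gene tests, 7 had an unadjusted p below 0.05, and the lowest adjusted p was 0.5087. RT1-Da differed by between -0.56 (depleted uranium, 6 months) and 0.31 (depleted uranium, 12 months). Cd74 differed by between -0.36 and 0.40. Ciita was above tantalum in 14 of 15 comparisons, with a highest difference of 0.42, while RT1-Bb was above it in 1 of 15. For both genes the comparisons of a month share the same 3 tantalum arrays, so these counts are not independent. Over all months, 3 of 31 comparisons had any member called, all higher, for 11 of 186 gene tests.

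Calls were also missing from the remaining comparisons at 1 and 3 months, where 0 of 6 genes passed in limma. At 1 month the share of all probe sets called was 3.02% for lead, 0.244% for depleted uranium, 0.131% for iron, 0.0261% for aluminum, 0.00871% for cobalt and 0.00871% for tungsten. At shares of 3.02% and below, 0 of 6 is near the share of all probe sets, here and at 3 months. It is not a result about the class II genes. Cd74 differed by -0.61 ± 0.26 in lead at 1 month, with an adjusted p of 0.1764 in limma. In aluminum at 1 month it differed by -0.88 ± 0.26, with an adjusted p of 0.2026 in limma. At 3 months the share was 0.118% for aluminum, 0.0436% for copper, 0.0174% for lead, 0.00436% for depleted uranium, 0.00436% for iron and 0% for tungsten. Among these metals at 3 months, aluminum and iron had the lowest means of RT1-Da, RT1-Db1, RT1-Ba and Cd74. Aluminum differed from tantalum by -0.64 to 0.32 over the 6 genes and iron by -0.56 to 0.16. Against the mean of the 7 other metals, which include cobalt and nickel, RT1-Da was lower by 0.97 ± 0.18 in aluminum and by 0.93 ± 0.18 in iron.

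The tantalum muscle itself changed with time. Cd74 fell from a mean of 9.36 at 1 month to 8.44 at 6 months and 8.12 at 12 months, by 0.92 ± 0.26 (adjusted p of 0.02625 in limma) and by 1.24 ± 0.26 (0.0008635). It was the 1 gene of 6 lower at 6 months, against a background of 2.37% of probe sets called lower. At 12 months RT1-Da fell too, by 0.70 ± 0.23, as did RT1-Db1, by 0.86 ± 0.20, which makes 3 of 6 against a background of 4.38%. Each of these calls was lost without the third tantalum array of 1 month, which left a difference of -0.54 at 6 months and -0.86 at 12 months for Cd74, -0.33 for RT1-Da and -0.61 for RT1-Db1. The Cd74 call at 6 months was also lost without the first or without the third tantalum array of that month. The RT1-Da call at 12 months was lost in 10 of 14 alternatives, among them array weights, an intensity trend, a second quantile normalization and leaving out any 1 tantalum array of 12 months. At 3 months 0 of 6 genes differed from 1 month in limma (background of 0.135% called lower).

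As a mean over the months (1, 3 and 6 for nickel), 5 of 6 genes were higher with nickel against a background of 1.84% called higher, and 4 of 6 with cobalt against 1.04%. In nickel the mean difference was 0.69 ± 0.13 for RT1-Da, 0.66 ± 0.12 for RT1-Db1, 0.68 ± 0.14 for RT1-Ba, 0.57 ± 0.15 for Cd74 and 0.35 ± 0.10 for Ciita. In cobalt it was 0.47 ± 0.12, 0.48 ± 0.10 and 0.57 ± 0.12 for RT1-Da, RT1-Db1 and RT1-Ba and 0.33 ± 0.09 for Ciita, while Cd74 at 0.43 ± 0.13 was not called. The RT1-Da mean in cobalt rests on 3 months. Its differences were -0.01, 2.29, -0.32 and -0.06 at 1, 3, 6 and 12 months. Against the mean of the other metals the Ciita difference was 0.08 ± 0.07 in nickel (adjusted p of 0.7399 in limma) and 0.10 ± 0.07 in cobalt (0.5395), neither called, and a second quantile normalization also ended both Ciita calls. Leaving out 1 replicate of all groups left between 1 and 3 calls in nickel and 1 or 2 in cobalt. No gene was called in the mean of aluminum, copper, depleted uranium, iron, lead or tungsten, where 0.187%, 0.0392%, 0.0174%, 0%, 0.139% and 0% of probe sets were.

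Genes that work beside class II were counted from a separate list of 34, of which 32 were measured. In cobalt at 3 months 13 of the 32 rose and 0 fell (4.87% and 0.588% of all probe sets). In nickel 8 rose and 0 fell (2.82% and 0.597%). The median difference was 0.31 in cobalt and 0.12 in nickel. The proteases and the reductase that prepare peptides in endosomes were among them. Ifi30, the lysosomal thiol reductase that opens disulfide bonds of antigens, rose by 1.40 ± 0.14 in cobalt and 0.78 ± 0.14 in nickel. Ctss, the cathepsin that trims the invariant chain, rose by 1.37 ± 0.23 and 1.02 ± 0.23, and Lgmn, an asparaginyl endopeptidase, by 1.01 ± 0.15 and 0.88 ± 0.15. Ctsb rose by 0.53 ± 0.12 and 0.61 ± 0.12.

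Costimulation and interferon signalling were split. Cd80, a costimulatory ligand, rose by 1.39 ± 0.17 in cobalt and 0.70 ± 0.17 in nickel. Ifngr1, a chain of the interferon gamma receptor, rose by 0.65 ± 0.10 and 0.40 ± 0.10. Irf1, an interferon-induced transcription factor that acts on Ciita, rose by 1.31 ± 0.20 in cobalt and differed by 0.37 ± 0.20 in nickel, not called, and the metals differed by 0.94 ± 0.20 (adjusted p of 0.001132 in limma). Ifng itself differed by 0.40 ± 0.20 in cobalt, not called, at a level under the limit of the dimmest 30% in both metals and in tantalum.

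The genes of the proteins that sit on the X and Y boxes did not pass in either metal. Rfx5 differed by 0.33 ± 0.17, Rfxap by -0.04 ± 0.13 and Rfxank by -0.05 ± 0.13 in cobalt, and Nfya, Nfyb and Nfyc by -0.09 ± 0.13, -0.20 ± 0.13 and -0.09 ± 0.10. The class II genes with more restricted roles did not pass either: RT1-DOa and RT1-DOb, the chains of the dimer that restrains RT1-DM, differed by 0.06 ± 0.18 and 0.36 ± 0.15, and RT1-Db2, a second beta chain gene, by 0.25 ± 0.22. With so few genes, a lack of calls is near the shares of all probe sets called in either direction, 5.46% in cobalt and 3.42% in nickel. It is not a result about these genes.

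Class I genes moved at the same time. Of 13 measured genes of the class I pathway, 10 rose in cobalt and 6 in nickel at 3 months, and 0 fell in either. The backgrounds are 4.87% and 2.82% of probe sets called higher. Psmb9, an immunoproteasome subunit, rose by 1.79 ± 0.15 and 0.77 ± 0.15. RT1-A1, a class I heavy chain, rose by 1.64 ± 0.15 and 0.53 ± 0.15, and B2m, its light chain, by 1.20 ± 0.12 and 0.71 ± 0.12. Psmb8 rose by 1.56 ± 0.18 in cobalt and differed by 0.37 ± 0.18 in nickel, not called. Heavy chain genes and the class II chain genes lie in 1 gene complex and resemble their relatives in sequence, so signal between near copies cannot be told apart here.

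**Figure D3:**
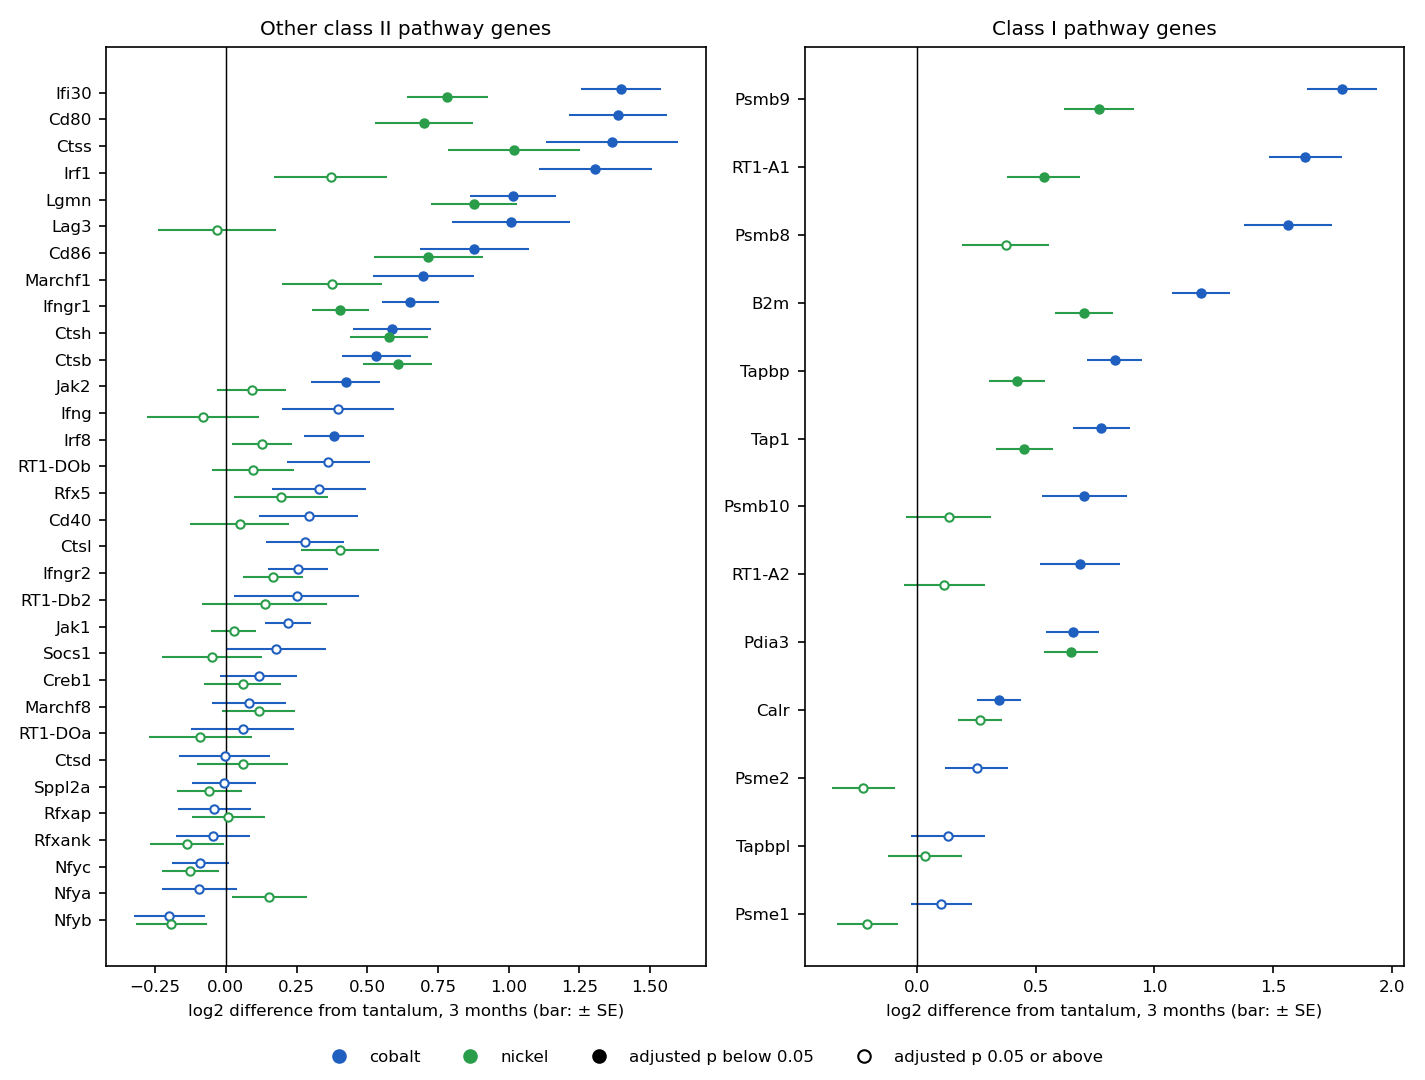
Log2 difference from tantalum at 3 months (point, with its SE as a bar) of the measured class II pathway genes other than the members and of class I pathway genes, cobalt in blue and nickel in green; filled points have an adjusted p below 0.05 in limma. Ifi30, Cd80, Ctss and Irf1 lead the first panel in cobalt, and Psmb9 and RT1-A1 the second.

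Markers of leukocytes moved with the class II genes, and which types moved differed between cobalt and nickel. Of 15 macrophage markers, 12 rose in cobalt and 9 in nickel at 3 months, against backgrounds of 4.87% and 2.82% of probe sets called higher. Between the metals 0 of 15 differed in limma, with 5 at an unadjusted p below 0.05. That 0 is near the background, since 2.2% of all probe sets were called in either direction. The mean of the macrophage markers lay at 7.79 to 8.32 in cobalt, 7.54 to 7.91 in nickel and 6.86 to 7.17 in tantalum. C1qb, a complement subunit made by macrophages, rose by 1.88 ± 0.24 and 1.68 ± 0.24.

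Lymphocyte markers rose mostly in cobalt. Of 12 T cell markers, 12 rose in cobalt and 1 in nickel, and 9 were higher in cobalt than in nickel. The backgrounds, also for the B cell markers, are 4.87%, 2.82% and 1.69% of probe sets called higher. The mean of the T cell markers lay at 6.75 to 6.86 in cobalt, 5.51 to 5.64 in nickel and 5.25 to 5.41 in tantalum. Of 9 measured B cell markers, 7 rose in cobalt and 0 in nickel, the latter with 3 at an unadjusted p below 0.05, and 6 were higher in cobalt than in nickel. The 0 of 9 in nickel is near its background. The mean of the B cell markers lay at 6.59 to 6.85 in cobalt, 5.51 to 5.59 in nickel and 5.22 to 5.38 in tantalum. In tantalum, 6 of the 12 T cell markers, among them Cd2, Cd3d, Cd3e and Cd3g, and 5 of the 9 B cell markers, among them Cd79b and Cr2, lay under the limit of the dimmest 30%. Cr2, complement receptor 2 of B cells, rose by 2.90 ± 0.17 in cobalt and differed by 0.07 ± 0.17 in nickel, not called.

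Of 10 measured dendritic cell markers, 4 rose in cobalt and 1 in nickel. The backgrounds, also for the lists below, are 4.87% and 2.82% of probe sets called higher. Xcr1, a receptor of cross-presenting dendritic cells, rose by 2.14 ± 0.25 in cobalt and differed by 0.20 ± 0.25 in nickel. Clec10a was the 1 that rose in nickel, by 0.64 ± 0.19. Of 8 pan-leukocyte markers, 7 rose in cobalt and 5 in nickel. Their mean lay at 9.45 to 9.79 in cobalt, 8.27 to 8.69 in nickel and 7.18 to 8.05 in tantalum. Fibroblast markers rose in nickel, 5 of 7, and 0 of 7 did in cobalt in limma, with 3 at an unadjusted p below 0.05. Of 8 endothelial and 11 skeletal muscle markers, 0 passed in either metal in limma, with 0 at an unadjusted p below 0.05. Such counts of 0 are near the shares of all probe sets called in either direction, 5.46% in cobalt and 3.42% in nickel. The part of the listed cell types in the class II results was not tested.

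In nickel at 1 month, 2 of 8 pan-leukocyte markers and 1 of 10 dendritic cell markers rose, while 0 of 15 macrophage, 0 of 9 B cell and 0 of 12 T cell markers did in limma, with 9, 0 and 1 at an unadjusted p below 0.05. With 0.405% of all probe sets called higher there, counts of 0 are near the background. Ctss was the 1 of 32 other class II pathway genes that rose, by 0.87 ± 0.23. The class II chains and the leukocyte genes were thus both called at 1 month in small numbers.

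**Figure D4:**
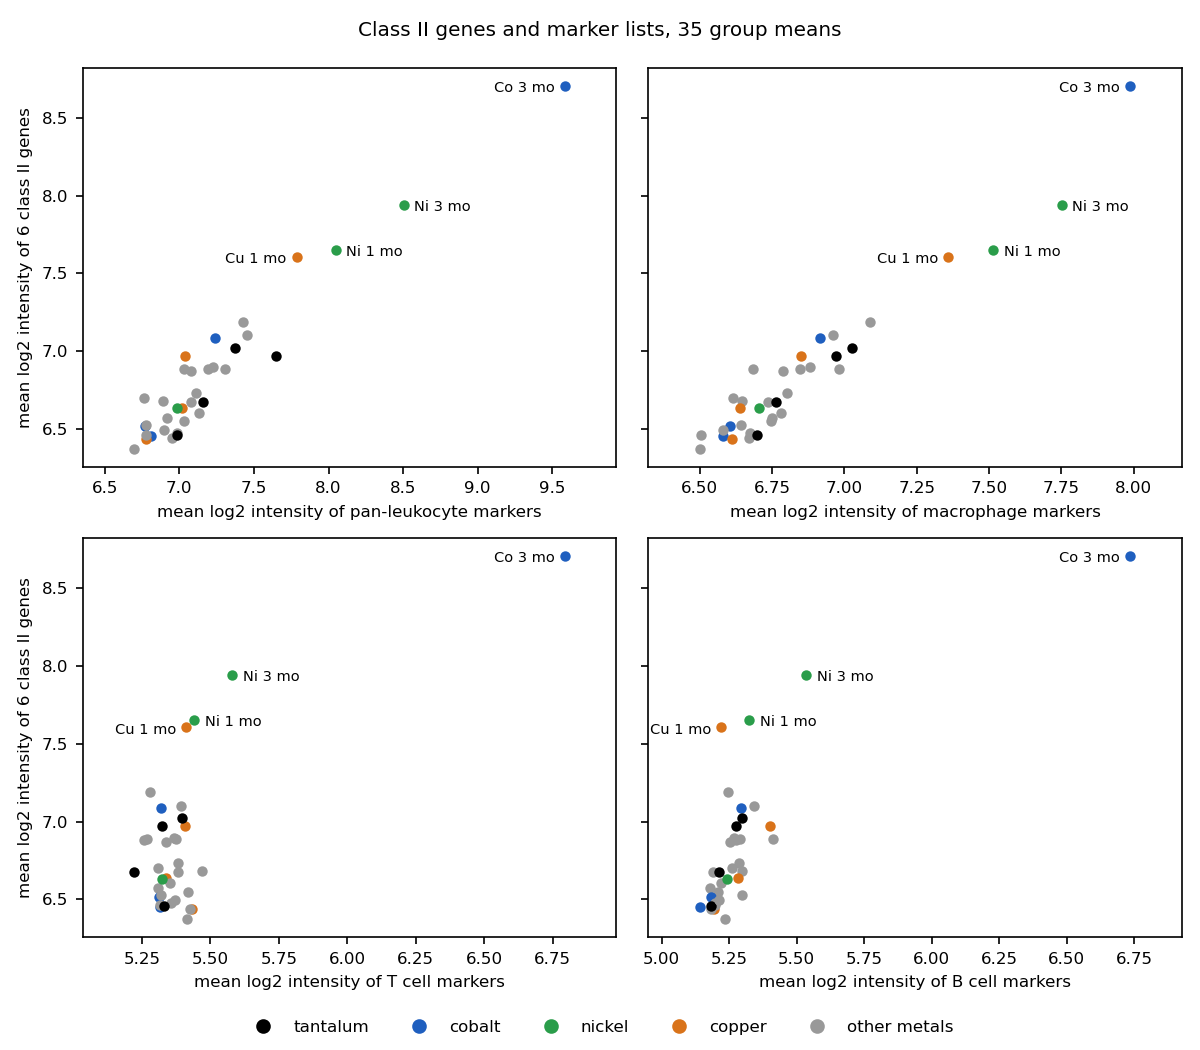
Mean log2 intensity of the 6 class II genes (vertical axis) against the mean of each of 4 marker lists (horizontal axes) in the 35 groups, each point the mean of 3 arrays. Nickel at 3 months, nickel at 1 month and copper at 1 month follow cobalt at 3 months in both means on the pan-leukocyte and macrophage axes, copper being next to tantalum at 3 months on the first, whereas on the T cell and B cell axes cobalt at 3 months stands alone.

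Across the 35 group means RT1-Da, RT1-Db1, RT1-Ba and Cd74 moved together. Their pairwise Pearson correlations lay between 0.958 and 0.976, and between 0.909 and 0.942 without cobalt and nickel at 3 months. RT1-Bb correlated with these 4 at 0.803 to 0.853. Ciita correlated with the other 5 at 0.462 to 0.690, and at 0.095 to 0.249 without those 2 groups, so that its likeness to its target genes rests on them. The points share arrays and normalization, and the values are descriptions.

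The same pairs can be read from the deviations of all arrays from their group means. Among RT1-Da, RT1-Db1, RT1-Ba and Cd74 the pairs then correlated between 0.451, for RT1-Db1 and RT1-Ba, and 0.714, for RT1-Da and Cd74. RT1-Da and RT1-Db1 correlated at 0.659, and RT1-Da and Ciita at -0.024. The 4 genes thus varied together among pools of 1 group as well, and Ciita did not vary with RT1-Da.

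By Pearson correlation with the mean course of the members over the 35 groups, 10 genes were most alike: Laptm5 (0.970), Lcp1 (0.970), LOC100910973 (0.968), Plac8 (0.965), Ifi30 (0.964), Cyth4 (0.960), Shisa5 (0.958), Tmsb4x (0.956), Man2a1 (0.955) and Inpp5d (0.954). Laptm5 and Lcp1, a lysosomal membrane protein and an actin-bundling protein of blood cells, were on the pan-leukocyte list, and Ifi30 was on the class II pathway list. Without cobalt and nickel at 3 months the 10 correlations lay between 0.886 and 0.931.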

How the data were processed

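The table used holds log2 intensities as deposited, 1 per probe set and array. Per the submitters' processing notes, the authors used RMA in the oligo package (R 4.0.1); the build behind the probe annotation is not given in the sources used here. RMA scales all arrays to 1 distribution, so a difference is relative to the rest of the array. Of 22977 probe sets, 23 controls were left out and 22954 tested, with no filter on dim ones. Symbols came from the platform annotation, updated by gene ID to RefSeq for GRCr8: 14855 probe sets had 1 symbol and 8099 none.

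All arrays entered 1 linear model in limma 3.58.1 under R 4.3.3 (lmFit, eBayes; a mean for each of 35 groups; 70 residual and 7.25 prior degrees of freedom) and tested on simulated data. P-values are two-sided and Benjamini-Hochberg adjusted over 22954 probe sets of a comparison, with 0.05 as the threshold. There were 48 comparisons with a direction and 12 moderated F tests. Array medians lay between 6.36 and 6.54, and no array correlated with the rest at a mean below 0.970. The number of arrays limits the precision.

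All members were named in every comparison, up to 4 genes of each other list by the smallest adjusted p in cobalt and in nickel at 3 months, further genes to show a count or a function, and the 10 genes most like the members. The members and lists were chosen with earlier results of these data known. Same-numbered arrays deviated together (all 3 correlations of deviations over 0.1) at 6 months for all metals and at 12 months for aluminum, cobalt, iron, lead and tungsten, but in no comparison at 1 or 3 months. The labels do not say what a number shares. Alternatives were a replicate block, a filter on the dimmest 30%, a second quantile normalization, a trend with robust hyperparameters, array weights, arrays of the month or of the 2 groups alone, adjustment over 31 comparisons, the other metals as reference and leaving out arrays.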

Additional observations from a re-analysis of the deposited data

Results flagged for a closer look

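The results below were picked out because the difference from tantalum differed between months or between metals by a test of that difference in limma, with 3 pools a group. The report gives the array values behind them, and their cause was not tested.

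In cobalt muscle the difference from tantalum was higher at 3 months than at 1 month by 2.30 for RT1-Da, 2.15 for RT1-Db1, 1.89 for RT1-Ba, 2.52 for Cd74 and 1.08 for Ciita on the log2 scale. From 3 to 6 months it changed by -2.61 for RT1-Da, -2.33 for RT1-Db1, -2.29 for RT1-Ba and -2.53 for Cd74. Between 3 and 12 months it changed by -2.35 for RT1-Da, -2.06 for RT1-Db1, -2.23 for RT1-Ba, -2.14 for Cd74 and -0.97 for Ciita. The moderated F test over the 4 months gave adjusted p-values of 1.305e-09, 2.79e-10, 6.901e-08, 6.066e-08 and 0.004154 for these 5 genes in the same order.

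In nickel muscle the change from 3 to 6 months was -1.42 for RT1-Da, -1.06 for RT1-Db1 and -1.39 for Cd74. The moderated F test over its 3 months gave an adjusted p of 0.02077 for RT1-Da.

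Cobalt exceeded nickel at 3 months by 0.98 for RT1-Da, 0.99 for RT1-Db1, 1.11 for RT1-Ba and 1.02 for Cd74. Among the 8 metals at 1 month the moderated F test gave adjusted p-values of 3.381e-06 for RT1-Da, 4e-06 for RT1-Db1, 0.005931 for RT1-Ba and 4.686e-06 for Cd74. At 3 months they were 2.223e-19 for RT1-Da, 2.424e-18 for RT1-Db1, 6.439e-17 for RT1-Ba, 0.003804 for RT1-Bb, 3.69e-17 for Cd74 and 0.0005146 for Ciita.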

How the results depend on the processing

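Every member called in cobalt at 3 months kept its call in all 18 alternatives, with RT1-Da between 2.18 and 2.47 and Ciita between 0.74 and 1.17. No called value changed direction in any alternative run. With the replicate number as a block, the count for nickel between months went from 1 to 2 members; the block changed no other count by over 1.5 times. Nickel at 1 month, 2 members, had 0 with only the 6 arrays compared, 0 with arrays of the same month, 0 with adjustment over all 31 comparisons, 1 with an intensity trend and robust hyperparameters, and 4 against the other metals. Copper at 1 month, 0 members, had 2 with array weights and 3 against the other metals. The test among metals at 1 month had 2 with arrays of the same month only. Against the other metals, aluminum had 1 member at 1 month, 4 at 3 months and 1 in its mean, and iron 4 at 3 months, all lower. That reference includes cobalt and nickel. With it, the shares of all probe sets called in either direction were 1.11% for nickel and 0.806% for copper at 1 month. For aluminum they were 0.266% at 1 month, 1.46% at 3 months and 0.105% in its mean, and for iron 0.418% at 3 months. The cause of the other shifts was not tested.

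Leaving out arrays (90 fits) gave 0 to 4 members for nickel at 1 month, 0 to 5 for copper at 1 month, 1 to 4 for cobalt against nickel, 0 to 4 for nickel at 6 against 3 months, 0 to 0 for nickel between months by the F test, 1 to 3 for the nickel mean, 1 to 2 for the cobalt mean, 0 to 1 for tantalum at 6 against 1 month and 0 to 3 at 12 against 1 month. Fewer arrays lower the power of each such fit. Among these fits, the share of all probe sets called is given only for the 1 without the third tantalum array of 1 month. Over the alternatives run for 45 single calls of members, a call was kept 640 times and lost 99 times. A second probe set could not be tried, since each measured member has 1.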
